A study of Mus musculus with 2 samples.

Results

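The interferon-stimulated genes described here are 35 mouse genes taken by symbol from the gene list of the deposited count matrices, out of 32285 genes in all. They were followed in aortic cells of wild-type mice and of MGP-KI mice, which carry a knock-in at the gene for matrix Gla protein, an inhibitor of vascular calcification. The labels do not describe the knock-in allele further. Mice of both genotypes were 1 month old and of both sexes, the adventitia was dissected away, dead cells were removed by sorting on DAPI, and live cells were sequenced on the 10X Genomics platform. Each genotype is 1 library of pooled male and female cells, labelled batch 1. How many mice each library holds is not given in the sources used here. No test between genotypes is therefore possible. The intervals below are 95% intervals for counting error alone, because no spread between mice can be measured. "Higher" and "lower" refer to these 2 libraries.

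Interferons are secreted proteins that cells release when they sense viral or misplaced nucleic acid. Type I interferons signal through JAK kinases to a complex that includes STAT2 and IRF9 and binds the interferon-stimulated response element, whereas interferon gamma acts on the gamma-activated sequence. The genes switched on in this way code for sensors, antiviral effectors, membrane restriction factors and the antigen-presentation machinery. Several of them are also expressed at rest, among them the class I light chain B2m, while others such as Ifit1 and Rsad2 are typically low until interferon arrives.

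The wild-type library held 3588 cells after filtering and the knock-in library 6089, with medians of 20395.5 and 11653 unique molecular identifiers (UMIs) per cell, and 4 cell barcodes occurred in both. Classes named from marker genes held 295 and 2571 smooth muscle cell-like (SMC-like) cells in wild-type and knock-in, 2722 and 2943 fibroblast-like cells, 317 and 278 macrophage or monocyte-like cells, and 70 and 45 endothelial-like cells. Although the adventitia had been removed, fibroblast-like cells were 75.9% of the wild-type cells and 48.3% of the knock-in cells. SMC-like cells were 8.22% and 42.2%. Differences in dissection, digestion or sorting and differences in the vessel cannot be told apart as sources of these shares. Because the sexes were pooled, the sex of each cell was inferred from its own counts. Wild-type cells were 32.5% female, 56.7% male, 8.70% neither and 2.12% both by this call. For knock-in the figures were 45.9%, 33.6%, 18.8% and 1.76%. Ratios over a whole class therefore compare different mixtures of the sexes. Mgp itself does not check the labels, since the counts do not show which allele a transcript came from. It stood at 5294 and 6880 CPM, the UMIs of a gene per 1000000 UMIs of the class, in SMC-like cells and at 8324 and 10324 CPM in fibroblast-like cells of wild-type and knock-in.

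The promoters of the genes were searched for the letters of both elements. RefSeq promoter sequences (GRCm38.p6, 250 bases before to 50 bases after each transcription start) were matched for 30 of the 35 genes. The genes without an entry in that table are Ifi27l2a, Usp18, Rtp4, Zbp1 and Parp14. The response element core GAAANNGAAA, searched on both strands, occurred in 14 of the 30 genes (46.7%), against 3.99% of the 27025 genes in the table. The gamma-activated sequence TTCNNNGAA, which reads alike on both strands, occurred in 8 of 30 (26.7%) against 9.55% of all genes. Bst2, Eif2ak2, Gbp7 and Ifitm3 held both, and 12 genes held neither in this window. Core matches were found in Ifit1, Ifit3, Isg15, Stat2, Ifih1, Ifitm2, Rsad2, Gbp2, Gbp3 and B2m besides those 4. A match describes letters and was not tested as a binding site. The 200 bases before the start are printed for 7 genes whose values recur below, 5′ to 3′ in the direction of the gene. Isg15 lies at chr4:156200819-156201018 on the minus strand, Ifit1 at chr19:34640689-34640888 and Ifit3 at chr19:34583329-34583528 on the plus strand, and Rsad2 at chr12:26456453-26456652 on the minus strand. Irf1 lies at chr11:53769814-53770013, Gbp2 at chr3:142620463-142620662 and B2m at chr2:122147487-122147686, all on the plus strand. Capitals mark the response element core or its reverse complement in every window except that of Irf1, where they mark the gamma-activated sequence.
Isg15: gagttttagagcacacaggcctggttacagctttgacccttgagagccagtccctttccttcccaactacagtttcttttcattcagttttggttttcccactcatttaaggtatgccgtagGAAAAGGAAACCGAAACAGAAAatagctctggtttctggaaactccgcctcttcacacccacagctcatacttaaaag
Ifit1: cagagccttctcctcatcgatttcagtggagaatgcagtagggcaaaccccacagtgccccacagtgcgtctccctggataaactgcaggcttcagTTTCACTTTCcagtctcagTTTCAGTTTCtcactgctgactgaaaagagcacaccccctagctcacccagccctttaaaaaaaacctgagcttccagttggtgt
Ifit3: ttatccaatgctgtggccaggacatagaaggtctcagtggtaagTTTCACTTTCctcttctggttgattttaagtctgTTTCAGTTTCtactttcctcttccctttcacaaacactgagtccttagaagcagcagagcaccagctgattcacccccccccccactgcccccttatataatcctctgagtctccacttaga
Rsad2: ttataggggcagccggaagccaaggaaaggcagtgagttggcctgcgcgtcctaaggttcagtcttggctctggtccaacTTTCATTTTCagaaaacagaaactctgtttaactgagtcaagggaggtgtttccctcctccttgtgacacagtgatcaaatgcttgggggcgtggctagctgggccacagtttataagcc
Irf1: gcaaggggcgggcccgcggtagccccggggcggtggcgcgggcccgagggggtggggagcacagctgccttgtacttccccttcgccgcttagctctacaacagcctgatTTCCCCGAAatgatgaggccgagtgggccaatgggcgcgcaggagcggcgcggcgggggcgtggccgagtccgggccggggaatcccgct
Gbp2: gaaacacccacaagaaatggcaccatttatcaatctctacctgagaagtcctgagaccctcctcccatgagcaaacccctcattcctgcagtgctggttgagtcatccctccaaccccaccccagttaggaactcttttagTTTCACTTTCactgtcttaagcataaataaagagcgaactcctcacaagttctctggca
B2m: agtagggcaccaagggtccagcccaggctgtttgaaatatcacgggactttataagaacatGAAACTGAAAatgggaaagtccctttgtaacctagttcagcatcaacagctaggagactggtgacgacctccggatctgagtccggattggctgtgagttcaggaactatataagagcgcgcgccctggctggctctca

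In these windows the inducible genes differ from each other by layout. Isg15 carries 3 overlapping cores in a single run, Ifit1 and Ifit3 each carry a pair of separate matches on the reverse strand, and Gbp2, Rsad2 and B2m carry 1 each. Psmb9 and Tap1 are transcribed from opposite strands of chromosome 17, and their promoter windows share 275 bases.

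**Figure D1:**
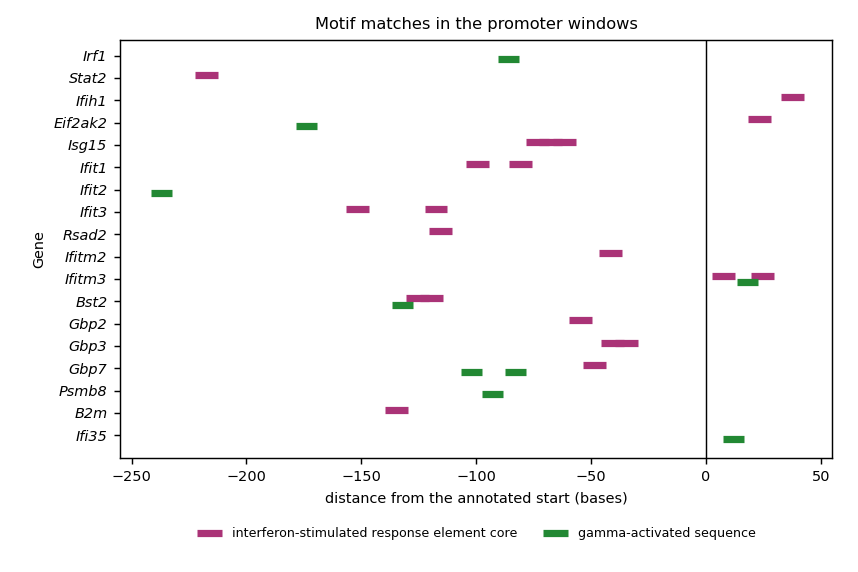
Positions of the response element core and the gamma-activated sequence in the promoter windows of the matched genes, as distance in bases from the transcription start (x axis), one line per gene. Of the 30 genes, 14 carry the core, 8 carry the gamma-activated sequence and 12 carry neither.

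The 35 genes had different levels in the 4 cell classes. Levels are given as CPM of all UMIs of a class in a library and are compared between classes for the same gene. SMC-like cells had the lowest level of the 4 classes in both libraries for 33 of the 35 genes (94.3%), which held for 10.3% of all genes with at least 10 UMIs in these classes. Macrophage or monocyte-like cells had the highest level in both libraries for 14 genes (40%, all genes 20.7%) and endothelial-like cells for 12 (34.3%, all genes 16.8%). In both libraries the macrophage interval lay wholly above that of the next-highest class for Ifi27l2a, Irf1, Irf7, Parp14, Rtp4, Trim25 and Zbp1. These were 7 of the 35 (20%) against 9.92% of all genes. Intervals of classes ranked lower were not compared. Ifi27l2a, which codes for a small hydrophobic membrane protein, reached 2272 CPM in wild-type macrophages, against 235 in fibroblast-like cells and 16.9 in SMC-like cells. Endothelial-like cells stood apart from the next-highest class in this way with Bst2, Gbp2, Gbp3 and Ifi44. These were 4 of the 35 (11.4%) against 4.45% of all genes. Bst2, which tethers budding virus particles to the cell surface, had 420 CPM there in wild-type, against 284 in macrophages, 124 in fibroblast-like and 55.5 in SMC-like cells. Ifit2 was the exception to these orders. This RNA-binding antiviral protein was highest in fibroblast-like cells, with 15.2 and 14.4 CPM in wild-type and knock-in, against 3.34 and 2.08 in macrophages.

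**Figure D2:**
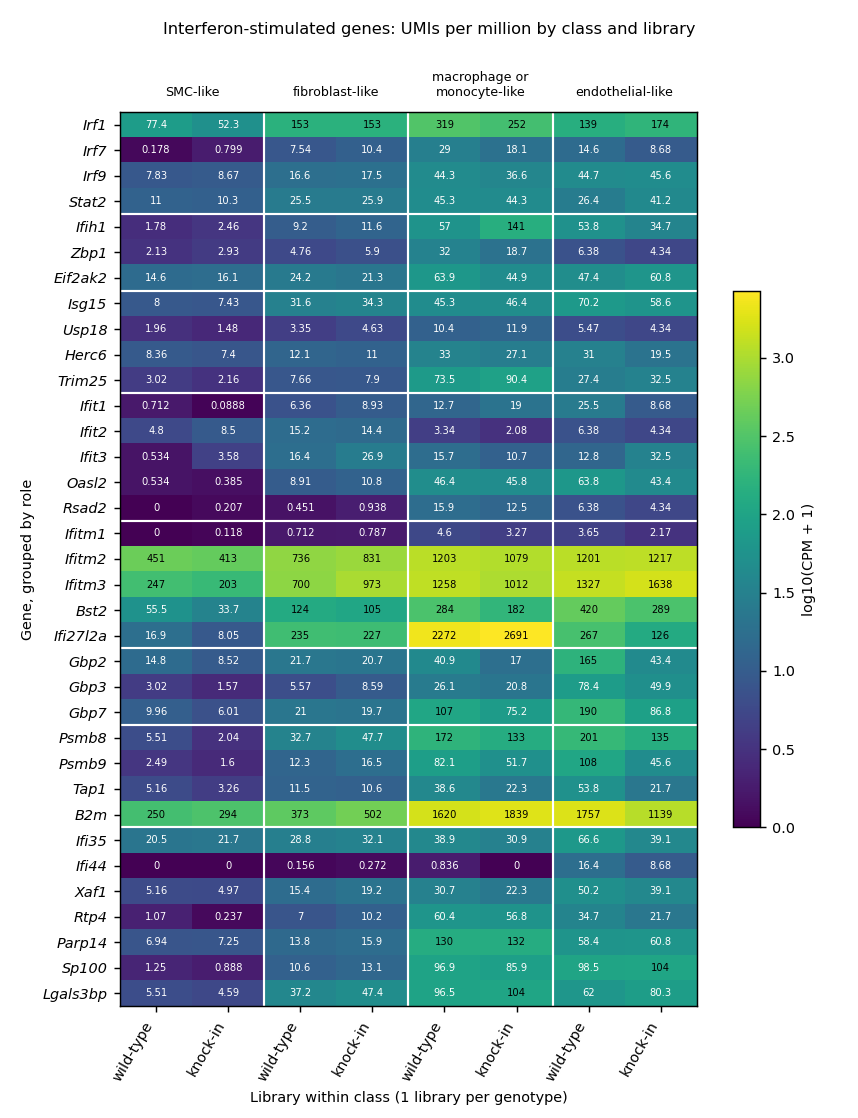
Level of each of the 35 genes (rows, by role) in the 4 cell classes of the wild-type and knock-in libraries, coloured by log10(CPM + 1). The SMC-like columns are the lowest for 33 genes in both libraries.

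Over all cells the knock-in library had lower values of nearly all of these genes. Of the 35 log2 ratios of knock-in to wild-type, 32 were below 0 (91.4%), with a median of -0.40. Among all genes measured 55.5% were below 0, with a median of -0.06. The 2 libraries also held different mixtures of cells, and fewer cells of a class and less RNA per cell cannot be told apart in such sums. SMC-like cells supplied 7.67% of the wild-type UMIs and 45.6% of the knock-in UMIs, and fibroblast-like cells 78.6% and 44.6%. With the class levels of each library weighted by the wild-type shares, the median became 0.10, with 22 genes above 0 and 13 below. The median of the 35 genes thus changed sign under these weights, of which fibroblast-like cells held 78.6%. The weighted value was not computed for all genes. The comparisons below are made within classes.

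**Figure D3:**
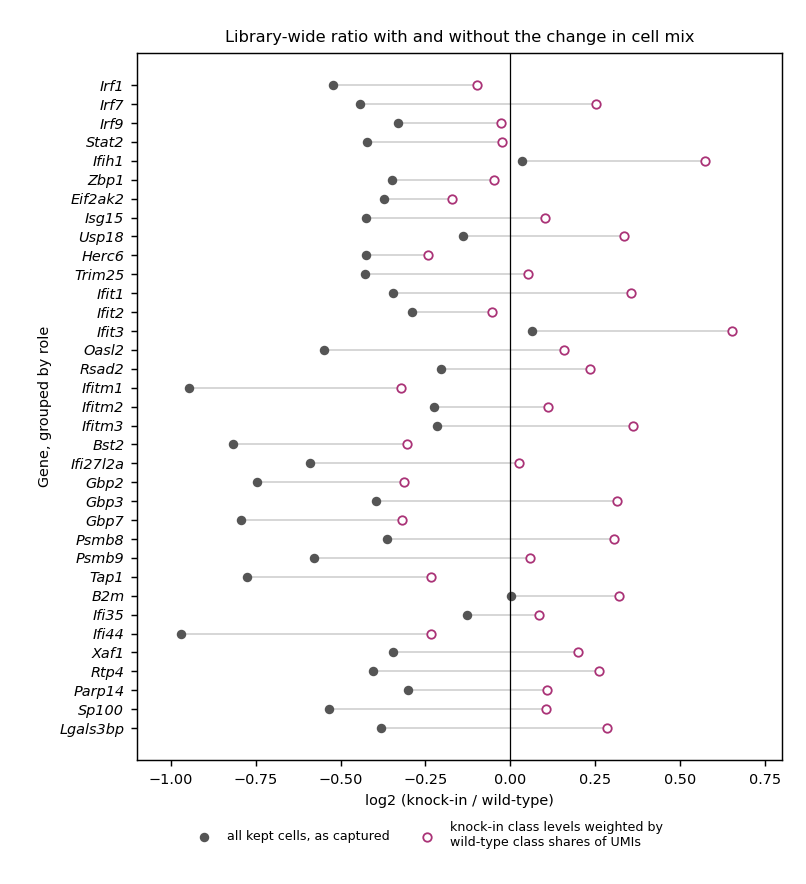
Log2 ratio of knock-in to wild-type for each gene over all cells and after weighting each library's class levels by the wild-type shares of UMIs. The median moves from -0.40 to 0.10.

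In fibroblast-like cells most of the genes were somewhat higher in the knock-in library. A ratio was taken where a gene had at least 10 UMIs in the class over both libraries, which all 35 genes had. The log2 ratio was above 0 for 26 genes (74.3%, all genes 44%) and below 0 for 9. The median was 0.28, whereas the median over all 17497 genes measured in these cells was -0.05. The differences were small. Only 4 of the 35 (11.4%) were at least 1.5-fold higher, near the background of 12.2% of all measured genes, and 0 were at least 1.5-fold lower, against 10.6%. By the counting interval, 21 of the 35 lay wholly above 0 (60%) and 3 wholly below (8.57%), where all measured genes gave 20.1% above and 30.2% below. The 4 were Ifit3, Rsad2, Gbp3 and Ifi44, and the 3 with intervals below 0 were Bst2, Ifi27l2a and Eif2ak2. Intervals are narrow for abundant genes, so these counts mix size with depth. The size differed within the class. The median was 0.04 within the third largest fibroblast-like cluster, an alternative chosen after the data were seen, 0.12 among cells of 8000 to 20000 UMIs and 0.12 among female cells.

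Ifit3, an RNA-associated antiviral effector that partners Ifit1, had the interval furthest from 0 in fibroblast-like cells among genes with at least 50 UMIs. It had 942 UMIs in wild-type and 890 in knock-in, or 16.4 and 26.9 CPM, a log2 ratio of 0.72 (0.59 to 0.85). Its near-identical neighbour Ifit3b was also higher, at 2.99 and 5.75 CPM, and reads of the pair may be split between them. Ifit1, which binds foreign capped RNA, stood at 6.36 and 8.93 CPM (log2 ratio 0.49, 0.26 to 0.72). Among cells of 8000 to 20000 UMIs its ratio was 0.06, and it was -0.03 in female cells against 0.76 in male cells. Rsad2, the enzyme viperin, was seen in only 26 and 31 UMIs, with a ratio of 1.05 (0.26 to 1.87). Oasl2, a homologue of the oligoadenylate synthetases, was at 8.91 and 10.8 CPM, and Ifit2 differed by less than counting error (-0.07, -0.24 to 0.09).

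The transcription factors differed from each other in fibroblast-like cells. Irf7, the transcription factor that amplifies type I interferon production, was at 7.54 and 10.4 CPM (0.47, 0.26 to 0.67). Irf9 and Stat2, the DNA-binding partners of the type I complex, stood at 16.6 and 17.5 CPM and at 25.5 and 25.9 CPM, with intervals that included 0. Irf1, a factor induced mainly through the gamma-activated sequence, was at 153 CPM in both libraries. That equality covered opposite values within the class. Irf1 was at 162 and 190 CPM in the largest cluster, 97.7 and 121 in the second, and 162 and 92.8 in the third.

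Among sensors and the ISG15 system, Ifih1, the cytosolic double-stranded RNA sensor MDA5, was at 9.2 and 11.6 CPM in fibroblast-like cells. Zbp1, a sensor of left-handed nucleic acid that can trigger cell death, was at 4.76 and 5.9 CPM. Eif2ak2, the kinase PKR, was lower in the knock-in library at 24.2 and 21.3 CPM (-0.18, -0.32 to -0.05). Isg15, a ubiquitin-like modifier, was nearly level at 31.6 and 34.3 CPM. Usp18, which removes ISG15 from proteins and damps the receptor, was at 3.35 and 4.63 CPM. Herc6, which attaches ISG15 to proteins, and Trim25, a ubiquitin ligase acting on RNA sensing, had intervals that included 0.

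Membrane proteins and antigen processing carried the most UMIs in fibroblast-like cells. Ifitm3, which blocks virus entry from endosomes, had 700 and 973 CPM (0.48, 0.45 to 0.50), and Ifitm2 at 736 and 831. Ifitm1 had 41 and 26 UMIs. Bst2 went the other way, with 124 and 105 CPM (-0.24, -0.29 to -0.18), and Ifi27l2a was at 235 and 227. The sexes differed there, since Ifi27l2a was at 250 and 132 CPM in female cells (-0.93) and at 229 and 325 in male cells (0.51). Psmb8, a catalytic subunit of the immunoproteasome, was at 32.7 and 47.7 CPM (0.54, 0.45 to 0.64), and Psmb9, another such subunit, at 12.3 and 16.5. B2m was at 373 and 502 CPM (0.43, 0.40 to 0.46). Tap1, which carries peptides into the endoplasmic reticulum, was not higher, with 11.5 and 10.6 CPM. Guanylate-binding proteins, GTPases that coat vacuoles of pathogens, were split. Gbp3 was at 5.57 and 8.59 CPM (0.62, 0.39 to 0.86), whereas Gbp2 and Gbp7 had intervals that included 0. The remaining genes include Xaf1, which promotes apoptosis, Sp100, a nuclear body protein, Lgals3bp, a secreted glycoprotein, Parp14, a mono-ADP-ribosyltransferase, and the interferon-induced Ifi35, Rtp4 and Ifi44. All but Ifi44 had intervals above 0, with log2 ratios between 0.16 and 0.54, and Ifi44 had 9 UMIs in each library. Rtp4 was at 7.0 and 10.2 CPM overall (0.54, 0.33 to 0.75), but its ratio was -0.07 in female and 0.99 in male cells.

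Markers of other cell types also differed between the fibroblast-like cells of the libraries. All 9 SMC markers were higher in knock-in, with summed levels of 407 and 729 CPM, and none was at 0. Of 7 endothelial markers 6 were higher, with sums of 33.6 and 47.3 CPM, while 8 of 11 macrophage or monocyte markers were lower, with sums of 39.8 and 35 CPM, and Fcgr1 was at 0 in knock-in. Their part in the result was not tested. Median depth also differed, at 21535 and 10864 UMIs per cell.

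In SMC-like cells the genes leaned the other way. Of the 31 genes measured, 3 (9.68%) were at least 1.5-fold higher in knock-in cells, against 11.1% of all measured genes, and 10 (32.3%) at least 1.5-fold lower, against 12.2%. The median log2 ratio was -0.28, against -0.05 for all 15374 measured genes, but it was -0.00 when likely doublets were kept. The 3 higher genes were Ifit3, Ifit2 and Irf7. Wild-type SMC-like cells were few, so low genes rest on little. Ifit1 had 4 and 3 UMIs, Rsad2 0 and 7, Ifitm1 0 and 4, and Ifi44 0 in both, all under the minimum. Ifit3 was seen in 3 UMIs in wild-type and 121 in knock-in, or 0.53 and 3.58 CPM, with a log2 ratio of 2.75 (1.17 to 5.04). Ifit2 was at 4.80 and 8.50 CPM (0.82, 0.25 to 1.45), from 27 and 287 UMIs. Irf7 had 1 and 27 UMIs. Free RNA, estimated from empty droplets, could account for up to 49.8% and 11.3% of Irf7 and 15.6% and 3.65% of Ifit3.

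The 10 lower genes in SMC-like cells were Psmb8, Psmb9, Tap1, Gbp2, Gbp3, Gbp7, Bst2, Ifi27l2a, Rtp4 and Oasl2. Rtp4 rested on 6 and 8 UMIs (-2.17, -3.89 to -0.37) and Oasl2 on 3 and 13. Psmb8 was at 5.51 and 2.04 CPM (-1.43, -2.06 to -0.77). Gbp2 was at 14.8 and 8.52 CPM (-0.79), Gbp7 at 9.96 and 6.01 (-0.73), and Gbp3 at 3.02 and 1.57 (-0.95), so all 3 guanylate-binding proteins were at least 1.5-fold lower. Bst2 was at 55.5 and 33.7 CPM (-0.72, -0.90 to -0.54), and Irf1 at 77.4 and 52.3 (-0.57, -0.72 to -0.41). Ifi27l2a was at 16.9 and 8.05 CPM (-1.07), but free RNA could account for up to 32.9% and 42.1% of it, and its ratio was 0.57 without doublet removal. The same bound was 8.78% and 41.7% for Rtp4, 19.5% and 27.2% for Oasl2, and 9.06% and 17.6% for Psmb8. It was at most 7.11% for the rest of the 10 lower genes. B2m stood apart from this group with 250 and 294 CPM (0.23, 0.15 to 0.31). Markers of other cells were lower too. All 4 measured class II genes were lower, against 55.3% of all genes, with summed levels of 48.2 and 8.67 CPM. Of 11 macrophage or monocyte markers, 7 were lower, with sums of 27.2 and 18.2 CPM and Ly6c2 at 0 in both libraries. All 8 fibroblast markers were lower, with sums of 3317 and 1956 CPM. Their part in the result was not tested.

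In macrophage or monocyte-like cells 25 of the 34 measured genes were below 0 (73.5%, all genes 51.1%) and 9 above. The median was -0.32, against -0.01 for all 12128 measured genes. Only Ifih1 (2.94%) was at least 1.5-fold higher, against 9.46% of all genes, and 7 genes (20.6%) were at least 1.5-fold lower, against 10.1%. By the counting interval, 5 genes lay above 0 (14.7%, all genes 12.8%) and 13 below (38.2%, all genes 12.7%). The 5 were Ifih1, Ifit1, Trim25, Ifi27l2a and B2m. Gbp2 had the lowest ratio, with 40.9 and 17 CPM (-1.27, -1.72 to -0.84), and Gbp7 was at 107 and 75.2 CPM. Tap1 was at 38.6 and 22.3 CPM (-0.79, -1.20 to -0.40), Psmb9 at 82.1 and 51.7 (-0.67) and Psmb8 at 172 and 133 (-0.37). Zbp1 was at 32 and 18.7 CPM (-0.77), Bst2 at 284 and 182 (-0.65) and Ifitm3 at 1258 and 1012 (-0.31).

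Among the transcription factors in macrophages, 2 of 4 had intervals below 0 (50%, all genes 12.7%). Irf7 was at 29.0 and 18.1 CPM (-0.68, -1.14 to -0.23), and Irf1 at 319 and 252 (-0.34). Irf9 was at 44.3 and 36.6 CPM (-0.28, -0.61 to 0.05) and Stat2 at 45.3 and 44.3 (-0.03). Levels of SMC markers were higher in knock-in macrophages for 8 of 9 genes, with sums of 90.5 and 205 CPM and Des at 0 in both. All 5 erythroid markers were higher too, with sums of 0.42 and 909 CPM, and 3 of them were at 0 in wild-type. Of 8 fibroblast markers, 5 were lower and 3 higher, with sums of 473 and 357 CPM. The part of these markers was not tested. Of the 11 inducible genes measured in macrophages, 8 were below 0, where 51.1% of all measured genes were. Ifit3 was at 15.7 and 10.7 CPM and Rsad2 at 15.9 and 12.5, both with intervals that included 0. Isg15 was at 45.3 and 46.4 CPM, Oasl2 at 46.4 and 45.8, and Ifit1 at 12.7 and 19. Ifi27l2a was at 2272 and 2691 CPM and B2m at 1620 and 1839, both with intervals above 0.

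In knock-in macrophages Ifih1 had most of its UMIs in few cells. It rested on 273 UMIs in wild-type and 473 in knock-in, or 57.0 and 141 CPM (1.30, 1.08 to 1.52), yet 39.7% and 40.3% of the cells had a UMI of it. Cells with at least 10 UMIs numbered 3 in wild-type, holding 60 UMIs, and 8 in knock-in, holding 274. A sub-cluster led by Gm49662 and Casr held 42 knock-in cells and 2 wild-type cells, and there the knock-in level was 341 CPM. Without that sub-cluster, an alternative chosen after the data were seen, the levels were 57.1 and 108 CPM (0.92). Ifih1 is itself among the leading genes of that sub-cluster, so its level there is a description. Ifnb1, the gene for interferon beta, had 0 UMIs in wild-type macrophages, which allows up to 0.627 CPM, and 14 in knock-in. Those 14 came from 3 cells, with 13 of them in 2 cells of the same sub-cluster. The other 9 interferon ligand genes examined had 0 UMIs in macrophages of both libraries.

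Endothelial-like cells were the smallest class, and their values have wide intervals. Of 30 measured genes, 2 (6.67%) were at least 1.5-fold higher in knock-in cells, against 14.1% of all measured genes, and 14 (46.7%) at least 1.5-fold lower, against 21.4%. The median was -0.55, against -0.05 for all 10188 measured genes. Gbp2 had 181 and 20 UMIs, or 165 and 43.4 CPM (-1.93, -2.67 to -1.26). Gbp7 was at 190 and 86.8 CPM (-1.13), Psmb9 at 108 and 45.6 (-1.24), Tap1 at 53.8 and 21.7 (-1.31) and B2m at 1757 and 1139 (-0.63, -0.77 to -0.49). The class I heavy chain H2-K1, which pairs with B2m, was at 2453 and 1219 CPM. Class II genes, which present antigen to helper T cells, were further apart. Their summed level was 1221 CPM in wild-type cells, against 41.2 in knock-in, and a UMI of the class II chaperone Cd74 was found in 37 of 70 and 3 of 45 cells.

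Not all endothelial values were lower in the knock-in library. Ifitm3 was at 1327 and 1638 CPM (0.30, 0.18 to 0.43), although its ratio was -0.01 among cells of 8000 to 20000 UMIs. The 2 higher genes were Ifit3, with 14 and 15 UMIs (1.35, 0.20 to 2.51), and Stat2, with 29 and 19 UMIs (0.64, -0.28 to 1.52). All 7 endothelial markers were higher in the knock-in library, with sums of 5726 and 8866 CPM. Of 11 macrophage or monocyte markers, 8 were lower and 0 higher, with sums of 82.1 and 10.8 CPM and 8 of them at 0 in knock-in. The 5 mesothelial markers summed to 1153 CPM in wild-type and were all at 0 in knock-in. All 5 lymphatic endothelial markers were lower in knock-in, with sums of 750 and 117 CPM and Ccl21a at 0 in knock-in. Of 8 fibroblast markers, 6 were lower and 2 higher, with sums of 1839 and 677 CPM. The part of these markers in the result was not tested as a whole. The class held 7 wild-type and 0 knock-in cells with UMIs of the mesothelial markers Upk3b or Msln. Without them, an alternative chosen after the data were seen, the median was -0.35 and Gbp2 was at -1.77, but Ifi27l2a turned from -1.09 to 0.15, since 192 of its 293 wild-type UMIs lay in those cells. Among male cells alone the median was 0.02, and among cells of 8000 to 20000 UMIs it was -0.09, so the lean toward lower values in this class was not seen in either of those subsets.

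**Figure D4:**
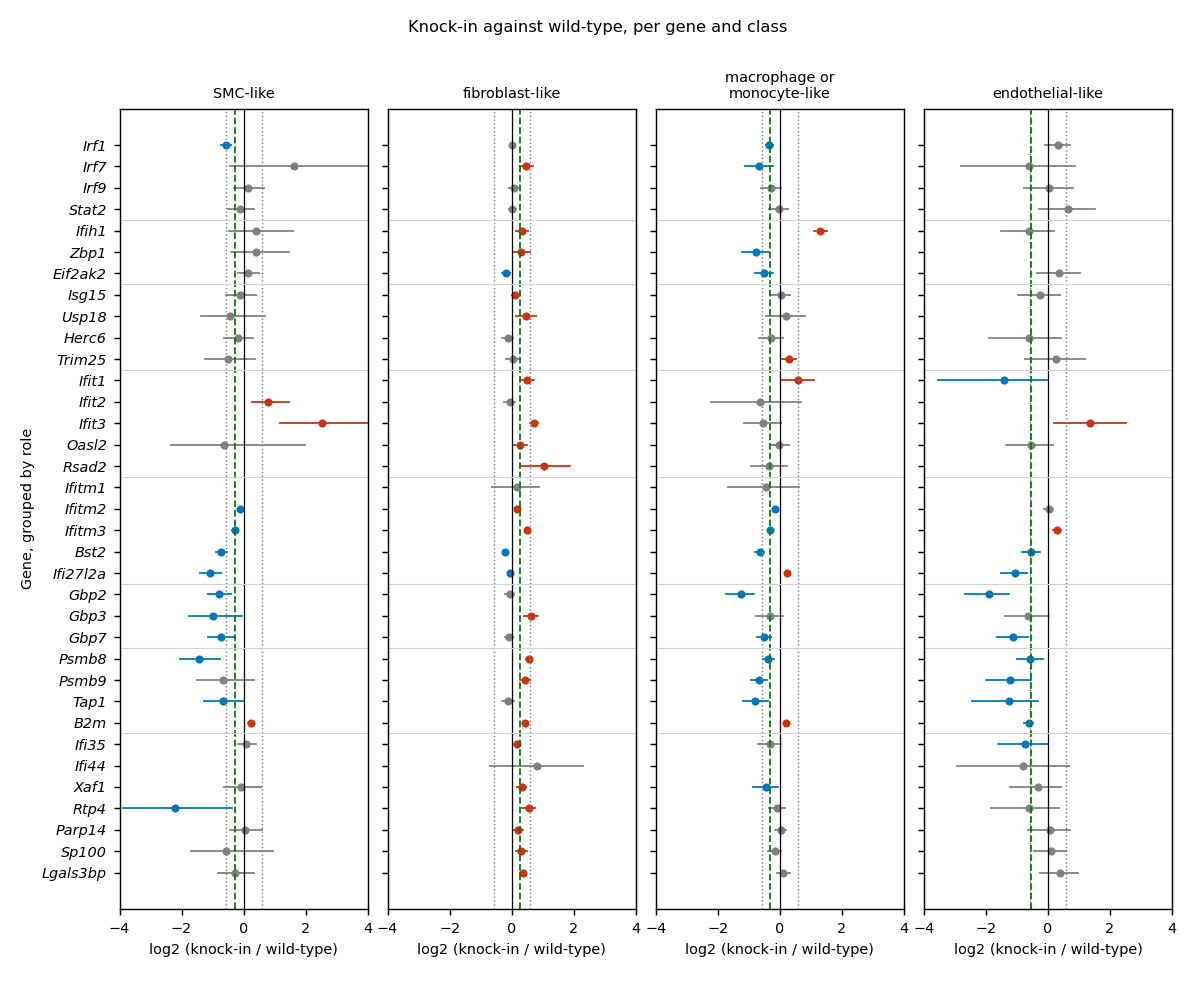
Log2 ratio of knock-in to wild-type for each gene in the 4 classes, with 95% counting intervals and genes under 10 UMIs left out. Class medians are -0.28 in SMC-like, 0.28 in fibroblast-like, -0.32 in macrophage or monocyte-like and -0.55 in endothelial-like cells.

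Of the 28 genes measured in all 4 classes, 5 had log2 ratios below 0 in every class (17.9%), which 18.8% of all genes measured in the 4 classes also had. They were Bst2, Gbp2, Gbp7, Tap1 and Herc6, and for Herc6 every interval included 0. Parp14 was above 0 in all 4, by 0.02 to 0.21, a direction that 10.9% of all genes shared. The ratios were also set beside the promoter letters. In SMC-like cells the median was -0.12 for genes with the response element core and -0.40 for matched genes without it. In fibroblast-like cells the medians were 0.25 and 0.22, in macrophages -0.32 and -0.34, and in endothelial-like cells -0.54 and -0.55. These are descriptions across genes, which are not replicates.

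The inducible genes were then counted in single cells. The 12 genes counted were Ifit1, Ifit2, Ifit3, Isg15, Irf7, Oasl2, Rsad2, Usp18, Rtp4, Zbp1, Xaf1 and Ifi44, and each cell was thinned to 5000 UMIs. Shallower cells were left out, 139 wild-type and 659 knock-in cells among fibroblast-like cells and 29 or fewer in any other class and library. At least 3 of the 12 were detected in 71 of 2583 wild-type fibroblast-like cells (2.75%, exact interval 2.15 to 3.45) and in 99 of 2284 knock-in cells (4.33%, 3.54 to 5.25). Without thinning the order was opposite, at 16.5% and 11.2%. Macrophages stood at 11.6% and 9.93%, and endothelial-like cells at 8.96% and 5.13%. Among SMC-like cells 0 of 290 wild-type cells passed, which allows up to 1.03% (3 cells of the 290), and 2 of 2542 knock-in cells (0.08%).

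The cells with at least 3 were chosen by the same 12 genes, which by itself raises their share of the UMIs. The shares are given as a description, without an expected value. In fibroblast-like cells they carried 35.9% of the thinned UMIs of the 12 genes in wild-type and 42.6% in knock-in, and in macrophages 49.0% and 47.1%. Some pairs of these genes were found together in fibroblast-like cells. Ifit3 was detected in 37.7% of wild-type fibroblast-like cells with Ifit1 and in 6.01% of those without, and in 40.9% and 10.1% in knock-in. Irf7 was detected in 9.39% of wild-type cells with Isg15 and 2.91% of those without, and in 15.5% and 3.37% in knock-in. B2m, which most cells express, was found in 82.9% of wild-type cells with Isg15 and in 81.6% of those without. Among SMC-like cells, where these genes were rarely detected, no cell of either library held both Ifit1 and Ifit3 or both Isg15 and Irf7. The summed level of the 12 genes was 117 and 147 CPM in wild-type and knock-in fibroblast-like cells, 303 and 264 in macrophages, 313 and 239 in endothelial-like cells, and 25.1 and 30.6 in SMC-like cells.

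**Figure D5:**
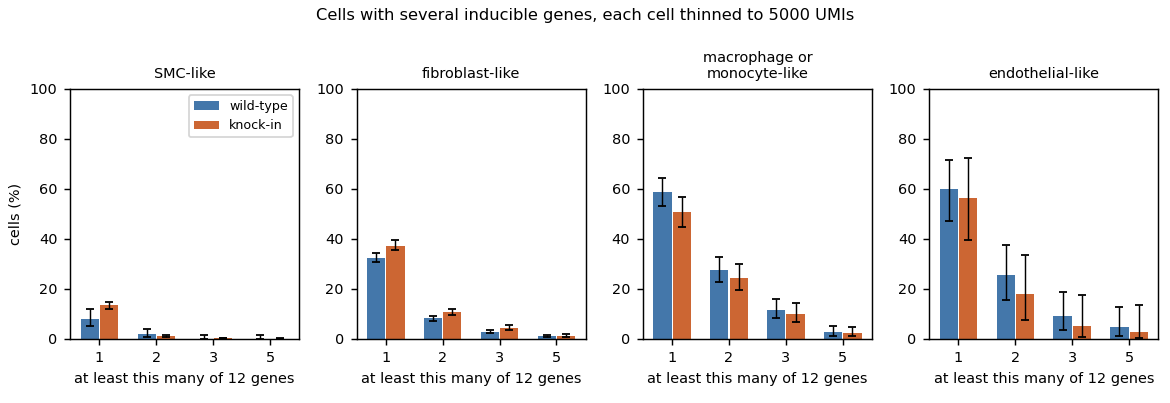
Percent of cells (y axis) in which at least 1, 2, 3 or 5 of the 12 inducible genes (x axis) were detected at 5000 UMIs per cell, by class, with bars for each library and exact 95% binomial intervals. For at least 3 genes, fibroblast-like cells stand at 2.75% and 4.33%, and macrophages at 11.6% and 9.93%.

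Other genes of the pathway were counted from further lists. The class I heavy chains and loading factors leaned as the 35 genes did. In fibroblast-like cells 11 of 12 were above 0 with a median of 0.24, where 44.0% of all measured genes were above 0. In macrophages 11 of 12 were below 0 with a median of -0.23, and 51.1% of all genes were. In SMC-like cells 10 of 12 were below 0 with a median of -0.40, against 55.3% of all genes. Class II went against this in macrophages, where all 5 genes were higher in the knock-in library, against 48.9% of all genes. Their summed levels were 3852 and 5401 CPM. Of 7 feedback genes measured in SMC-like cells, 5 were above 0 and 2 below, with a median of 0.17, where 44.7% of all genes were above 0. Socs3, a feedback inhibitor of cytokine receptors, was among the 2 below, at 257 and 147 CPM. The receptor chains differed little in fibroblast-like cells, where 0 of 6 were at least 1.5-fold higher and 1 was lower (16.7%, against 10.6% of all genes), with summed levels of 307 and 285 CPM.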

How the data were processed

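Cells of 1 wild-type and 1 MGP-KI library were analysed. The deposited matrices hold raw UMI counts per gene and cell barcode. The submitters' processing notes name Cell Ranger 7.1.0 as the program behind them. The genome build, annotation and aligner are not given in the sources used here. Empty barcodes were included in the deposit, and cells were called from 1000 UMIs and 500 genes upward with a limit of 10% on mitochondrial UMIs. Doublet scores were computed by simulation, and the top 0.8% per 1000 cells of each library were removed (109 wild-type and 330 knock-in cells), because the caller's own threshold would mark 6 and 8. Both libraries were clustered together (scanpy 1.11.5, 2000 variable genes, 30 components, 15 neighbours, Leiden resolution 0.5). A cluster took the name of the marker list with the highest gain and stayed unnamed where a rival list reached 0.7 of it, a limit set after the clusters were seen.

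Counts were summed per class and library and divided by all UMIs of the class. Ratios have exact conditional binomial intervals, levels exact Poisson and shares Clopper-Pearson intervals, at 95%. They cover counting error only. With 1 library per genotype no p-value was computed. A gene was measured from 10 UMIs, and calls of 1.5-fold, list medians and ratios under alternatives used 0.5 UMI added to each count. Library totals were 79626104 and 85831737 UMIs over all barcodes. Free RNA was bounded from markers of absent cell types at 0.53% to 2.29% of a class's UMIs. Reads of near-identical family members (Ifit3 and Ifit3b, Ifi27l2a and Ifi27l2b, the Gbp, Ifitm and Sp100 families) may be divided between copies. Members and lists were chosen with earlier results of these data known. All 35 genes are named, and full values go first to up to 8 per class whose interval bound lies furthest from 0, among those with at least 50 UMIs. The ratio and its interval were tried on simulated Poisson counts with known changes, which hold counting error only. Clustering, class naming, doublet removal and the other steps were not simulated. Alternatives covered filters, depth, sex, doublets, clustering, free RNA, thinning and thresholds.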

Additional observations from a re-analysis of the deposited data

Results flagged for a closer look

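Genes whose counting intervals lay on opposite sides of 0 in fibroblast-like and macrophage or monocyte-like cells are given by the difference of the log2 ratios, fibroblast-like minus macrophage. These differences were not tested, since each genotype has 1 library. For Irf7 the difference was 1.14, for Psmb9 1.09 and for Zbp1 1.08. Psmb8 differed by 0.92, Ifitm3 by 0.79, Xaf1 by 0.78 and Ifitm2 by 0.33, all higher in knock-in fibroblast-like cells and lower in knock-in macrophages. Ifi27l2a had the opposite pattern, with a difference of -0.29, though its fibroblast-like ratio was -0.93 in female and 0.51 in male cells. Of the 34 genes measured in both classes, the first pattern held for 7 (20.6%, all genes 1.9%) and the second for 1 (2.94%, all genes 2.8%). A further 3 (Ifit1, Ifih1 and B2m) (8.82%, all genes 5.61%) had intervals above 0 in both and 2 (Bst2 and Eif2ak2) had intervals below 0 in both (5.88%, all genes 7.12%).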

How the results depend on the processing

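No paired analysis was possible because each genotype has 1 library. The counts in this paragraph cover the interferon-stimulated genes alone. Shares of all genes under the same alternatives are not given, so the counts describe dependence on the processing only. In SMC-like cells 5 genes were at least 1.5-fold higher and 5 lower without doublet removal, and a fold of 2 left 3 lower. In fibroblast-like cells 1 gene was higher among cells of 8000 to 20000 UMIs and 1 at a fold of 2, 8 within the largest cluster and 8 within the second, while 1 was lower among female cells and 3 within the third cluster, where the median was 0.038. In macrophages 2 were higher among cells of 8000 to 20000 UMIs, 3 among male cells and 2 after centring on the median gene, while 11 were lower with mitochondrial UMIs limited to 5% and 1 at a fold of 2. In endothelial-like cells 1 was higher among female cells, 9 among male cells, 0 at a minimum of 50 UMIs and 1 at a fold of 2, while 8 were lower among male cells, 8 after centring, 9 at a minimum of 50 UMIs and 6 at a fold of 2. The cause was not tested. The limit of 5% left the endothelial-like cluster unnamed, so it gave no value there.

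Shares of cells with at least 3 inducible genes followed the depth. They were 1.47%, 5.28% and 16.5% at 3000 UMIs, 8000 UMIs and without thinning in wild-type fibroblast-like cells and 1.88%, 6.98% and 11.2% in knock-in. In macrophages they were 6.39%, 21.1% and 38.8% in wild-type and 3.99%, 18.2% and 25.2% in knock-in. Endothelial-like cells without thinning gave 34.3% and 24.4%. Knock-in SMC-like cells gave 0.42% at 8000 UMIs, 0.66% without thinning and 0.43% without doublet removal. With at least 2 genes the wild-type and knock-in shares were 1.72% and 0.90% in SMC-like, 8.05% and 10.5% in fibroblast-like, 27.4% and 24.3% in macrophage and 25.4% and 17.9% in endothelial-like cells.

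Of 1460 alternatives for 115 values of single genes with at least 50 UMIs in the class, 124 had the other sign, over 54 of the values. Genes with fewer UMIs were left out of this count. Among those left out, endothelial-like Rtp4 was higher in knock-in among male cells and Stat2 lower among female cells, each opposite to the whole class. Only 4 of the 124 belonged to a gene at least 1.5-fold apart, in each case Ifi27l2a. These were 0.57 in SMC-like cells without doublet removal and, in endothelial-like cells, 0.040 without doublet removal, 0.092 with each library clustered on its own and 0.15 without cells with mesothelial markers. Depth limits low genes in SMC-like and endothelial-like cells most.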

Other observations

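Some further genes were picked out after their values were seen. Oasl1, a relative of Oasl2, stood at 16.7 CPM in wild-type macrophages and at 60.7 in knock-in, from 80 and 204 UMIs. A UMI was found in 13.2% and 17.6% of the cells, and 6 knock-in cells held 95 of the 204. Gbp2b had 42 and 1 UMIs in macrophages and 36 and 0 in fibroblast-like cells, and Gbp8 had 29 and 2 in macrophages. In endothelial-like cells Ifi27l2b had 47 and 2 UMIs. The pericyte-like cluster, led by Mdga2, Chrm3 and Chrm2, comprised 52 wild-type cells and 179 knock-in cells. The summed level of the 12 inducible genes there was 135 CPM in the wild-type cells and 228 in the knock-in cells.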
